A study of Mus musculus with 6 samples.

Results

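*Dazl*, *Tex101*, *Taf7l*, *Slc25a31*, *Tuba3a*, *Tuba3b*, *Ctcfl*, *Stk31*, *Luzp4* and *Cox7b2* are genes of the male germ line that are listed as silenced by promoter methylation outside it. They were taken by symbol, 10 of the 19489 genes in the table of mRNA levels, and all 10 were detected in every library. Mouse ESCs grown with serum and LIF gave 6 mRNA libraries, 3 from control (Con) cells and 3 from cells overexpressing *Dppa3* (OE). In the study, OE cells carried the *Dppa3* coding sequence in the vector pLch3.7 under the CAG promoter, controls received the empty vector, and both were selected with puromycin. No source says whether the RNA came from picked stable lines, from how many clones, or from the J1 or the D3 line, and the control samples are labelled wild type. Libraries 1 and 2 of each group form 2 pairs by number, and the third pair is labelled D7, a label that the sources do not explain. The strain label differs in each of the 6 samples, rising by 1 from 129S2/SvPas to 129S7/SvPas in sample order.

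In somatic cells and in the embryo after implantation, a set of germline genes is kept silent by DNA methylation of CpG-rich promoters, and many of these genes become active when the maintenance methylase Dnmt1 is lost. In ESCs the same promoters are also bound by a Polycomb complex, PRC1.6, which reaches DNA through E2F6 and through the MGA and MAX pair that reads the E-box. Dppa3 binds Uhrf1, the factor that brings Dnmt1 to newly copied DNA, and keeps it from that task. DNA methylation itself was not measured in these files.

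The members have different jobs in germ cells. *Dazl* encodes an RNA-binding protein that germ cells need. *Taf7l* and *Ctcfl* are germline relatives of the general transcription factor gene *Taf7* and of the insulator gene *Ctcf*. *Slc25a31* and *Cox7b2* encode germline forms of mitochondrial proteins, the ADP/ATP carrier and a cytochrome c oxidase subunit. *Tuba3a* and *Tuba3b* encode alpha tubulins of the testis. *Tex101* encodes a surface protein of male germ cells and *Stk31* a protein with a tudor and a kinase domain. *Luzp4* encodes a leucine zipper protein, whose human counterpart is known as a cancer/testis antigen.

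On GRCm38.p6, *Dazl* lies at chr17:50279393-50293620, *Tex101* at chr7:24668012-24672050, *Taf7l* at chrX:134460116-134476505, *Slc25a31* at chr3:40708871-40726094 and *Tuba3a* at chr6:125278270-125286081. *Tuba3b* lies at chr6:145615963-145621477, *Ctcfl* at chr2:173093609-173119525, *Stk31* at chr6:49395506-49469506, *Luzp4* at chrX:148857694-148924139 and *Cox7b2* at chr5:71442823-71548205.

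Promoter windows from RefSeq on GRCm38.p6, each of 250 bases before and 50 bases after a gene start, were at hand for 9 of the 10 genes, and *Ctcfl* had none. The windows of 6 members are printed 5′ to 3′ on the strand of the gene, with every CpG in capitals, because the silencing these genes are listed for acts on CpG sites. Whether each of these windows is methylated was not tested. They show CpG-dense promoters (*Dazl*, *Taf7l*, *Slc25a31*), the promoters of the tubulin pair and that of *Luzp4*, the member with the largest fitted OE difference over pairs 1 and 2. The *Luzp4* window belongs to a transcript that starts 24882 bases inside the annotated gene.
Dazl: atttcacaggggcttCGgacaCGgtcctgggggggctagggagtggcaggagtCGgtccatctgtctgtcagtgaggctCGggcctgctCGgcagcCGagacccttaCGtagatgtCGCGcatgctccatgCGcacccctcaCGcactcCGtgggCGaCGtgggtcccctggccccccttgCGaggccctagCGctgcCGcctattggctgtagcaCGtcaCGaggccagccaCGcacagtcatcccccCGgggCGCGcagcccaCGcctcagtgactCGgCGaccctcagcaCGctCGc
Taf7l: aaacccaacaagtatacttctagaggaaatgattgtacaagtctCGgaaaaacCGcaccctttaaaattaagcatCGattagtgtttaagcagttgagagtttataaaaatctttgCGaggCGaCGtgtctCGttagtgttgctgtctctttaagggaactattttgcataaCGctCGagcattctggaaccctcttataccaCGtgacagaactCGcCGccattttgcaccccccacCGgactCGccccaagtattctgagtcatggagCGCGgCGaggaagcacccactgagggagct
Slc25a31: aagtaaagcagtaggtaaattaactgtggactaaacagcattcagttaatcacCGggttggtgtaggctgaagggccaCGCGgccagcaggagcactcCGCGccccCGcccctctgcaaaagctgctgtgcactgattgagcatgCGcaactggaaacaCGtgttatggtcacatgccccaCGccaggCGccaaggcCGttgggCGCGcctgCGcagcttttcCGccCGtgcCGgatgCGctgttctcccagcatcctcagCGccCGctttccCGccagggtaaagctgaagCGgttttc
Tuba3a: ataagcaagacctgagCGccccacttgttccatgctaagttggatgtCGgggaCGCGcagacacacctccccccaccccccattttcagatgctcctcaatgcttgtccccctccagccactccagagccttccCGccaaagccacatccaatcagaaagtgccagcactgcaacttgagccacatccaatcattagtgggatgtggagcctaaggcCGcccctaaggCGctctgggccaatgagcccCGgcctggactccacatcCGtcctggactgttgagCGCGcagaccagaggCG
Tuba3b: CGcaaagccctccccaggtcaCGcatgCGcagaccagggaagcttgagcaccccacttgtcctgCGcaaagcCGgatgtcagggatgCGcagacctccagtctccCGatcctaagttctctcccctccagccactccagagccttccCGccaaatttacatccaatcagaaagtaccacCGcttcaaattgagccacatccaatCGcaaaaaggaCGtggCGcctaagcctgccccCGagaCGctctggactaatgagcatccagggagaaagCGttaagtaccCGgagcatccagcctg
Luzp4: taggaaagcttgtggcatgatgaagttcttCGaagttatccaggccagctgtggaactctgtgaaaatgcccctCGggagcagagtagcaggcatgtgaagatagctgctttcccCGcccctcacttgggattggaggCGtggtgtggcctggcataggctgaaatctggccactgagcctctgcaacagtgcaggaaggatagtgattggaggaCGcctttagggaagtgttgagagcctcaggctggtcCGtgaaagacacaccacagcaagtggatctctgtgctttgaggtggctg

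These windows span chr17:50293571-50293870 on the minus strand for *Dazl*, chrX:134476441-134476740 on the minus strand for *Taf7l* and chr3:40708621-40708920 on the plus strand for *Slc25a31*. Those of *Tuba3a*, *Tuba3b* and *Luzp4* span chr6:125286032-125286331 on the minus strand, chr6:145615713-145616012 on the plus strand and chrX:148882326-148882625 on the plus strand. The *Dazl* window held 28 CpG sites and that of *Stk31* 29, more than 85.8% and 87.1% of the 32851 windows of the table. *Slc25a31* had 22, *Tex101* 19, *Taf7l* 17, *Tuba3b* 16, *Tuba3a* 12 and *Cox7b2* 10. *Luzp4* had 6, below the median of 7 over all windows, and was the 1 of these 9 below that median. The ratio of observed to expected CpG, which corrects for base content, was highest in *Taf7l* at 1.03 and lowest in *Luzp4* at 0.283, against a median of 0.384 over all windows.

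The letters TCCCGC, a core of E2F6 sites, were searched on both strands, and CACGTG, the E-box, which reads the same on both. TCCCGC was found in 4 of the 9 windows (*Slc25a31*, *Tuba3a*, *Tuba3b* and *Cox7b2*) and in 20% of all windows. TCCCGC itself holds a CpG, and the members' windows had a median of 17 CpG sites. Among gene lists with higher medians, it was found in 50% of DNA methylation genes and 46.7% of PRC1.6 genes. It was also in 50% of the members' relatives used in other tissues and in 1 of 3 primordial germ cell markers. Lists with lower medians had it in 0% to 40% of windows. CACGTG was found in 3 of the 9 (*Taf7l*, *Slc25a31* and *Stk31*) and in 7.2% of all windows. *Slc25a31* held both, with the E-box starting 93 bases before the gene start and TCCCGC starting 20 bases after it. In *Tuba3a* and *Tuba3b* TCCCGC started 119 and 106 bases before the start, and the windows of this pair matched at 62.6% of aligned positions. *Dazl*, *Tex101* and *Luzp4* held neither string in these windows. Such matches describe the letters and are not evidence of binding.

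**Figure D1:**
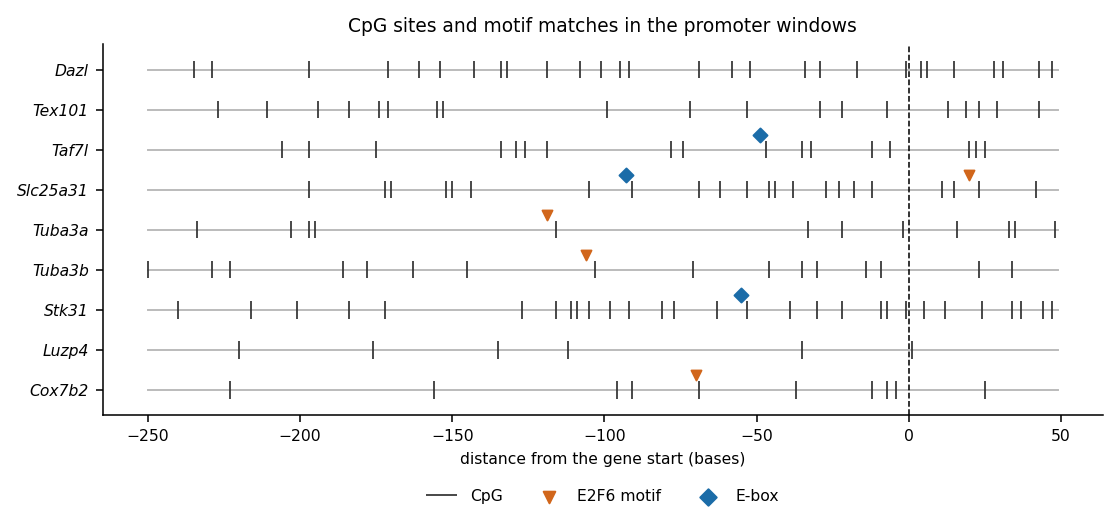
CpG sites (ticks) and matches to TCCCGC (E2F6 motif, triangles) and CACGTG (E-box, diamonds, placed at their first base) in the RefSeq promoter windows of 9 members, by distance from the gene start in bases. *Dazl* and *Stk31* carry the most CpG sites, 28 and 29, and *Luzp4* the fewest, 6.

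Depth was near equal, from 17408954 to 18176939 estimated counts per library, and levels are given as FPKM (fragments scaled by transcript length and depth, by the authors). *Dppa3* measured 6.09, 3.89 and 26.22 FPKM in Con-1, Con-2 and Con-D7 and 278.79, 278.82 and 130.96 FPKM in OE-1, OE-2 and OE-D7. The ESC markers fixed for the check (*Pou5f1*, *Nanog* and 6 others) summed to 3667 to 4536 FPKM in the 6 libraries. Single markers were less level than this sum. *Pou5f1* measured 383.78 and 311.64 FPKM in Con-D7 and OE-D7 against 575.03 to 682.98 in the other 4 libraries. *Dppa5a* went the other way, at 2083.11 and 2267.56 FPKM against 1238.34 to 1701.12. The spermatid markers (*Prm1*, *Tnp1* and 6 others) summed to 0.05 to 0.61 FPKM, and each of these 8 averaged under 0.5 FPKM. The 6 spermatogonia markers summed to 25.64 to 58.9 FPKM, and 3 of them averaged under 0.5 FPKM. Among the 6, *Stra8* measured 1.96 to 12.24 FPKM in libraries 1 and 2 of both groups and 29.18 and 33.81 in Con-D7 and OE-D7. *Dmrt1* went the other way, at 11.84 to 16.2 FPKM there and 11.21 and 8.12 in Con-D7 and OE-D7. *Rec8* changed little, at 10.16 to 15.47 FPKM there and 15.24 and 16.26 in Con-D7 and OE-D7. The 8 markers of testis somatic cells summed to 6.36 to 14.18 FPKM. The 7 primordial germ cell markers, *Dppa3* among them, summed to 52.99 to 343 FPKM. The sums were 59.63, 52.99 and 75.87 FPKM in Con and 343, 328.6 and 182.7 FPKM in OE. The overexpressed *Dppa3* alone made up 278.79, 278.82 and 130.96 FPKM of the OE sums. None of the other markers of this list exceeded 23.74 FPKM in any library. The D7 pair also stood apart from the other libraries in collagen genes among the fibroblast markers. *Col1a1* measured 37.98 FPKM in Con-D7 and 129.05 in OE-D7 against 0.80 to 1.81 in the other 4 libraries, while *Dcn* and *Lum* did not exceed 0.21 FPKM in any. The 8 fibroblast markers summed to 33 to 60.9 FPKM in libraries 1 and 2 of both groups and to 74.7 and 183.8 in Con-D7 and OE-D7. *Thy1*, which makes up most of that sum in libraries 1 and 2, went the other way, at 30.84 to 52.99 FPKM there and 22.95 and 20.97 in Con-D7 and OE-D7, and *Pdgfrb* in Con-D7 (4.06 FPKM) lay below Con-2 (5.44 FPKM).

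The question put to the members was whether their mRNA is higher in OE than in Con ESCs. In the *Dppa3* OE libraries of pairs 1 and 2, *Luzp4*, *Tuba3b*, *Tuba3a*, *Dazl* and *Slc25a31* were higher than in their paired controls, by 1.61-fold to 5.12-fold in FPKM within a pair. These 5 of 10 members passed the test with the pair as a term, and 0 of 10 did without it. The other 5 members had higher fitted means in OE and did not pass in either fit. In such bulk libraries more cells with a transcript and more transcript per cell cannot be told apart.

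*Dazl* measured 7.65, 17.98 and 19.33 FPKM in Con-1, Con-2 and Con-D7 and 13.89, 29.51 and 27.07 FPKM in OE-1, OE-2 and OE-D7. It was higher in OE in all 3 pairs, by 1.82-fold, 1.64-fold and 1.40-fold. The groups overlapped, since OE-1 lay below Con-2 and Con-D7. With the pair as a term its log2 fold change over pairs 1 and 2 was 0.74 (SE 0.105, adjusted p = 0.000873, edgeR).

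*Taf7l* measured 4.70, 9.37 and 7.81 FPKM in the Con libraries in the same order and 4.67, 14.67 and 9.28 FPKM in the OE libraries. Its level was the same in both libraries of pair 1 to within 0.03 FPKM, and 1.57-fold and 1.19-fold higher in OE in pair 2 and the D7 pair. In estimated counts pair 1 was less level, at 138 in Con-1 and 153 in OE-1. The log2 fold change of 0.42 over pairs 1 and 2 did not pass (SE 0.16, adjusted p = 0.447, edgeR with the pair as a term). *Ctcfl* measured 1.06, 1.77 and 3.89 FPKM in Con and 2.16, 3.07 and 4.19 FPKM in OE. In pairs 1 and 2 it was 2.04-fold and 1.73-fold higher in OE without overlap of the groups, and in the D7 pair 1.08-fold. Its log2 fold change of 0.85 did not pass (SE 0.21, adjusted p = 0.0661), and its estimated counts were fractional in every library. Levels of both genes were far below those of the relatives used outside the germ line, *Taf7* at 28.34 to 41.98 FPKM and *Ctcf* at 42.65 to 77.99 FPKM over the 6 libraries.

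*Slc25a31* measured 5.68, 9.67 and 5.86 FPKM in Con and 9.14, 17.37 and 5.01 FPKM in OE. In pairs 1 and 2 it was 1.61-fold and 1.80-fold higher in OE, and in the D7 pair it was lower, at 0.855 of the control level. Its log2 fold change over pairs 1 and 2 was 0.73 (SE 0.13, adjusted p = 0.00781, edgeR with the pair as a term), a call that DESeq2 did not make (adjusted p = 0.433). The ADP/ATP carriers of other tissues, *Slc25a4* and *Slc25a5*, measured 153.12 to 215.58 and 429.49 to 525.75 FPKM. *Cox7b2* measured 2.24, 2.18 and 2.73 FPKM in Con and 4.21, 5.43 and 2.67 FPKM in OE. It was 1.88-fold and 2.49-fold higher in OE in pairs 1 and 2 without overlap of the groups, and 0.978 of the control level in the D7 pair. These levels rest on 20 to 49 estimated counts per library, and the log2 fold change of 1.07 did not pass (SE 0.34, adjusted p = 0.252). *Cox7b*, its relative in other tissues, measured 113.83 to 140.11 FPKM.

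*Tuba3a*, the most abundant member, measured 27.29, 49.35 and 51.73 FPKM in Con and 61.32, 82.44 and 55.28 FPKM in OE. All 3 OE libraries lay above all 3 Con libraries, but OE-D7 exceeded Con-D7 by 1.07-fold against 2.25-fold and 1.67-fold in pairs 1 and 2. Over pairs 1 and 2 the log2 fold change was 0.90 (SE 0.10, adjusted p = 7.54e-05, edgeR with the pair as a term). *Tuba3b* measured 0.80, 3.20 and 3.52 FPKM in Con and 3.84, 9.80 and 6.09 FPKM in OE. It was higher in OE in each pair, by 4.80-fold, 3.06-fold and 1.73-fold, and the groups did not overlap. The pair 1 ratio rests on 22.64 estimated counts of *Tuba3b* in Con-1, where *Tuba3a* had 743.32. The log2 fold change of *Tuba3b* was 1.79 (SE 0.23, adjusted p = 0.000275, edgeR with the pair as a term). The transcripts of the 2 genes were identical at 95.4% of 1508 aligned positions in GENCODE, so reads could be split between them, and their counts were fractional in every library. Of the 50-base stretches of the *Tuba3a* transcript, 32.4% occurred unchanged in that of *Tuba3b*, and 27.4% the other way round. Summed into 1 gene, they had a log2 fold change of 0.96 (SE 0.10, adjusted p = 0.00104, edgeR with the pair as a term). The alpha tubulins of other tissues that were listed (*Tuba1a*, *Tuba1b*, *Tuba1c* and *Tuba4a*) measured 44.59 to 1653.67 FPKM, and *Tuba4a* in OE-D7, at 44.59 FPKM, was the 1 value below *Tuba3a* of the same library.

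*Luzp4* measured 1.59, 1.57 and 1.58 FPKM in Con and 5.00, 8.04 and 4.87 FPKM in OE. The Con libraries were equal to within 0.02 FPKM, and each OE library was over 3 times as high, by 3.15-fold, 5.12-fold and 3.08-fold. Its log2 fold change of 2.11 over pairs 1 and 2 was the largest among the members in that fit, although *Tuba3b* differed more in pair 1 (SE 0.23, adjusted p = 5.96e-05, edgeR with the pair as a term). Its estimated counts were 46.88, 45.62 and 56.89 in Con and 160.18, 258.4 and 160.27 in OE. The Con libraries were thus less alike in counts than in FPKM. These counts were fractional in every library, and sharing of *Luzp4* reads with other genes was not tested. *Tex101* measured 4.89, 5.59 and 3.85 FPKM in Con and 5.80, 8.93 and 6.16 FPKM in OE. The OE libraries all lay above the Con libraries, by 1.19-fold, 1.6-fold and 1.6-fold within the pairs, and the log2 fold change of 0.43 did not pass (SE 0.21, adjusted p = 0.641). *Stk31* measured 4.25, 6.45 and 4.25 FPKM in Con and 5.36, 8.39 and 3.86 FPKM in OE. The groups overlapped, with ratios of 1.26, 1.30 and 0.908, and the log2 fold change of 0.32 did not pass (SE 0.13, adjusted p = 0.508).

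**Figure D2:**
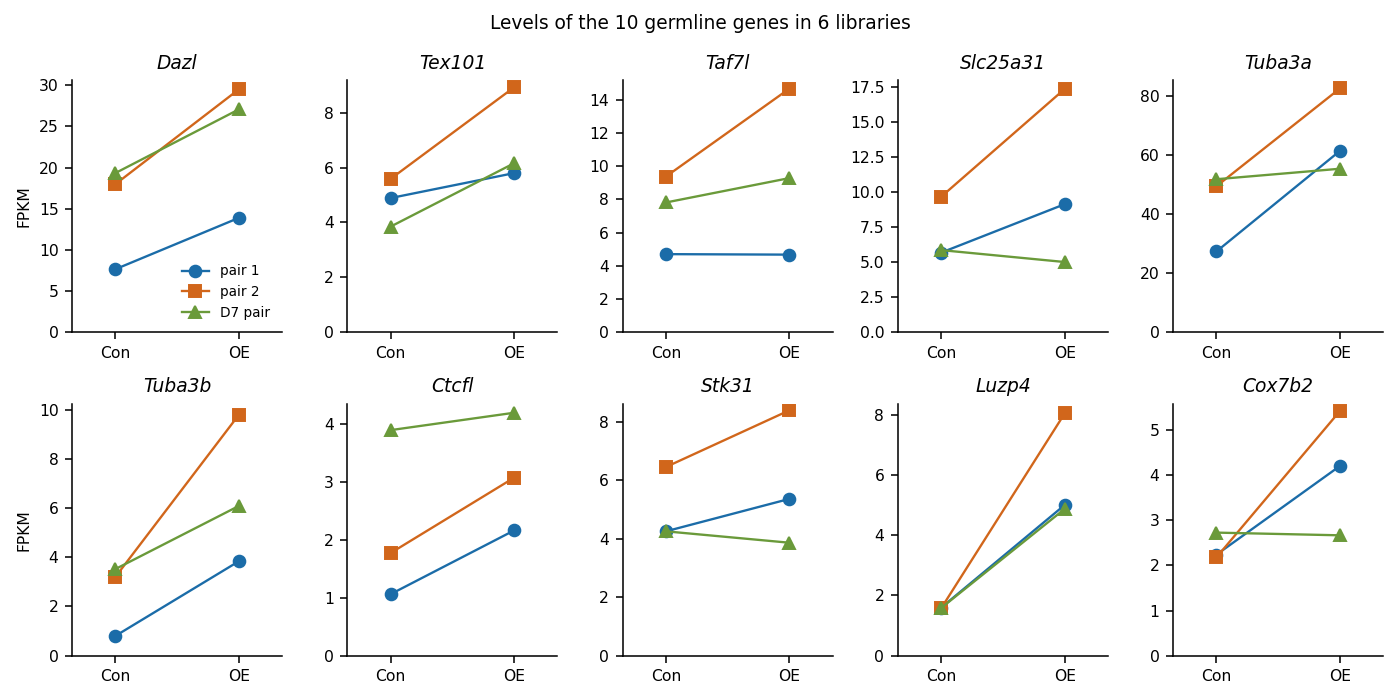
FPKM of each member in Con and OE libraries, 1 panel per gene, with lines joining the 2 libraries of pair 1, pair 2 and the D7 pair. *Luzp4* lies at 1.57 to 1.59 FPKM in Con and at 4.87 to 8.04 in OE, *Taf7l* is level in pair 1, and *Slc25a31* and *Stk31* slope down in the D7 pair.

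Read together, the median member was 1.71-fold higher in OE in pair 1 and 1.64-fold higher in pair 2, as log2 ratios of FPKM plus 0.5 of 0.78 and 0.72. Of the 10 members, 9 were above 0 in pair 1 and 10 in pair 2, against 60.5% and 56.1% of 13809 genes with a mean of at least 0.5 FPKM, whose median log2 ratios were 0.05 and 0.03. OE lay above Con without overlap for 6 members in libraries 1 and 2 (10.9% of those genes) and for 4 members, *Tex101*, *Tuba3a*, *Tuba3b* and *Luzp4*, over all 6 libraries (1.9%).

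The 5 members that rose with the pair as a term compare with 0.763% of 13494 tested genes called higher and 0.126% called lower. The members were chosen with earlier results of these data known, so this share and those above serve as description only. Without the pair as a term, 0 of 10 members and 0% of genes passed as higher in edgeR, with 3 members (*Tuba3a*, *Luzp4* and *Cox7b2*) at an unadjusted p under 0.05. Over all genes 58 higher and 4 lower had an unadjusted p under 0.05 in that fit, DESeq2 called 2 genes and limma 0, none of them members. *Dppa3* itself, at a log2 fold change of 5.75, did not pass without the pair as a term (adjusted p = 0.43), so that fit left the overexpressed gene itself uncalled. DESeq2 and limma with the pair as a term called 4 and 5 members. The number of genes called with the pair as a term was not steady, at 103 higher in edgeR, 56 with *Tuba3a* and *Tuba3b* summed and 30 with no filter on low levels, while members called were 5 of 10, 4 of 9 and 4 of 10. Leaving out 1 library, without the pair as a term, left 1 library in a group and replicate number unbalanced between genotypes. Its values thus carry any replicate difference. The median log2 fold change of the members was 1.15 without Con-2 and 1.088 without OE-1. It was 0.498 without Con-1 and 0.436 without OE-2, against 0.794 with none left out. The study describes its results in general as coming from independent experiments, without saying how the 6 libraries fall to them. Without the pair as a term the p-values thus measure the spread between these libraries, which may be technical. With it, over libraries 1 and 2, they measure how far the OE differences of 2 pairs disagree, with variation shared over all genes. That spread may be technical too.

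**Figure D3:**
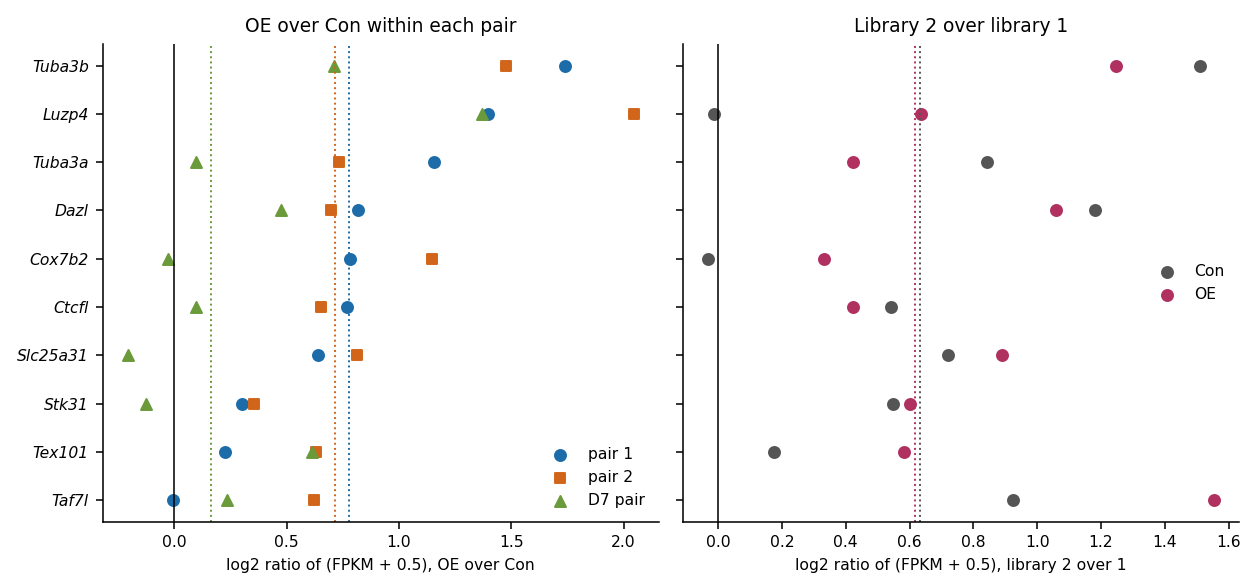
Log2 ratios of FPKM plus 0.5 for each member, OE over Con within pair 1, pair 2 and the D7 pair (left) and library 2 over library 1 within Con and within OE (right), with dotted lines at the medians. The left medians are 0.78, 0.72 and 0.17, and the right medians 0.63 in Con and 0.62 in OE.

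The members also differed between replicate 2 and replicate 1 of the same genotype. *Taf7l* and *Dazl* were 1.99-fold and 2.35-fold higher in Con-2 than in Con-1 and 3.14-fold and 2.13-fold higher in OE-2 than in OE-1. *Tuba3b* was 4.0-fold and 2.55-fold higher in library 2, the first over 22.64 estimated counts in Con-1. *Luzp4* and *Cox7b2*, at 0.987 and 0.973 of the Con-1 level in Con-2, were the exceptions in the controls, yet were 1.61-fold and 1.29-fold higher in OE-2 than in OE-1. Library 2 was above library 1 for 8 of 10 members in Con and 10 of 10 in OE, with median log2 ratios of 0.63 and 0.62, against 0.115 and 0.09 over all genes.

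In the fit with genotype as a term, 6 of 10 members were higher in replicate 2 and 0 lower, when 26% of all tested genes were higher and 25.4% lower. These were *Tuba3b* (log2 fold change 1.47), *Taf7l* (1.31, SE 0.16, adjusted p = 7.06e-06, edgeR), *Dazl* (1.07), *Slc25a31* (0.76), *Tuba3a* (0.54) and *Stk31* (0.52). *Ctcfl* at 0.50, *Luzp4* at 0.38, *Tex101* at 0.32 and *Cox7b2* at 0.11 did not pass. With no genotype term 4 passed (*Taf7l*, *Dazl*, *Stk31* and *Slc25a31*). A fit with 1 library left out also had no genotype term, so in it the replicate numbers were unbalanced for genotype and its values carry any OE difference. Without Con-1 or without OE-2 it called 2 members higher, *Dazl* and *Taf7l*. Without OE-2 it set Con-2 alone against Con-1 and OE-1, and *Luzp4* was at -1.21, a value that is no measure of the replicate difference, since OE-1 is an OE library. *Taf7l* thus had a larger difference between replicate numbers than between genotypes, and *Luzp4* a larger one between genotypes, with values of 1.31 against 0.42 and 0.38 against 2.11. That contrast of coefficients was not itself tested.

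The members had no common direction in the D7 libraries. Con-D7 lay above both other Con libraries for 5 members, between them for 4 and below them for 1, while OE-D7 lay above both other OE libraries for 1 member, between them for 4 and below them for 5. In the fit over 6 libraries with genotype as a term, 0 of 10 members passed in either direction, against 6.77% of 13809 genes higher and 3.06% lower. Those shares rest on both D7 libraries, since leaving out OE-D7 took the genes called from 935 higher and 422 lower to 0 and 0, and leaving out Con-D7 to 28 and 0. *Ctcfl* had the largest difference, 2.75-fold the mean of the other Con libraries in Con-D7 and 1.6-fold in OE-D7 (log2 fold change 1.08, SE 0.30, adjusted p = 0.079, edgeR), and was the 1 member with an unadjusted p under 0.05. DESeq2 called it (adjusted p = 0.0205) and limma called 0 members. *Slc25a31* had a log2 fold change of -0.87 (SE 0.39, adjusted p = 0.202) and *Stk31* one of -0.58 (SE 0.27, adjusted p = 0.21). The median log2 fold change over the members was -0.002. Of the 8 fibroblast markers 6 could be tested and 4 were higher in the D7 pair. Of the 8 ESC markers 3 were lower and 0 higher, with a median log2 fold change of -0.80. The part of these markers in the members' values was not tested.

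Within the D7 pair the OE difference was smaller. The median log2 ratio of the members was 0.17, a 1.12-fold difference, with 7 of 10 above 0 where 54.5% of all genes were. *Dppa3* was 5.00-fold higher in OE in this pair, against 45.8-fold and 71.7-fold in pairs 1 and 2. *Luzp4* kept a 3.08-fold and *Tex101* a 1.6-fold difference, while *Tuba3a*, *Ctcfl*, *Cox7b2*, *Stk31* and *Slc25a31* lay between 0.855 and 1.08 of the control. The OE effect in the D7 pair minus that in pairs 1 and 2 was below 0 for 9 of 10 members, with a median of -0.70. With the pair as a term 1 member, *Tuba3a*, passed as lower (difference -0.83, SE 0.17, adjusted p = 0.0112, edgeR), against 0.507% of genes lower and 0.934% higher. *Slc25a31* had a difference of -0.97 (SE 0.25, adjusted p = 0.0503). Without the pair as a term 0 of 10 members and 0% of genes passed as lower, and 0 members had an unadjusted p under 0.05. The fit with the pair as a term compares 1 D7 pair with 2 others.

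Over all 6 libraries at once, 0 of 10 members passed as higher, against 0% of genes called higher both without and with the pair as a term, and 0.00724% called lower with it. *Luzp4* had a log2 fold change of 1.89 (SE 0.22, adjusted p = 0.0908) and *Dazl* one of 0.64 (SE 0.09, adjusted p = 0.0936, edgeR with the pair as a term). *Tuba3b* was at 1.42 (adjusted p = 0.18) and *Tuba3a* at 0.62 (adjusted p = 0.416). Unadjusted, 7 members had p under 0.05 with the pair as a term and 1 without it. DESeq2 with the pair as a term called 4 members (*Dazl*, *Tuba3a*, *Tuba3b* and *Luzp4*), DESeq2 without it 1 (*Luzp4*), and limma 0 in both. *Dppa3* did not pass here either with the pair as a term (log2 fold change 4.35, adjusted p = 0.118).

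**Figure D4:**
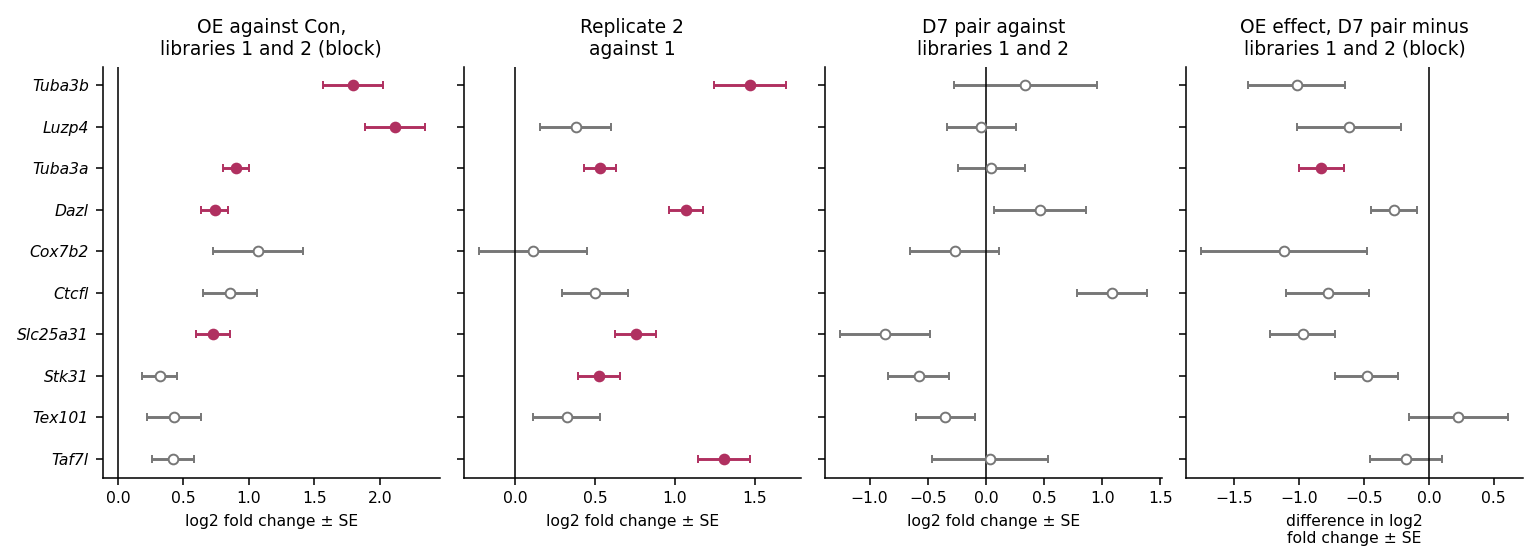
Log2 fold changes of the members with standard errors from edgeR in 4 comparisons, with filled points where the adjusted p is under 0.05. *Luzp4* (2.11) and *Tuba3b* (1.79) lead the OE comparison, *Tuba3b* (1.47) and *Taf7l* (1.31) the replicate comparison, no member passes in the D7 comparison, and *Tuba3a* (-0.83) passes in the difference of OE effects.

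A wider list of 50 germline genes of the same kind, which holds no member, gave the setting of these values. It too was chosen with earlier results of these data known. Of its 43 tested genes, 10 were higher in OE with the pair as a term and 0 lower, where 0.763% of all genes were higher, with a median log2 fold change of 0.29 against 0.80 for the members. Without the pair as a term 0 of 43 passed, and over all 6 libraries 0 of 44 passed in edgeR with or without it. With the pair as a term DESeq2 called 4 of the 43, and edgeR with no filter 4 of 49. Among the 10, the 4 with the largest values were *Asz1*, a piRNA pathway gene (log2 fold change 1.65), *Fkbp6* (1.17), which acts in the same pathway, *Nxf2*, an RNA export factor (1.08), and *Nlrp14*, an oocyte gene (1.06). In replicate 2 against 1, 25 of the 43 were higher and 2 lower (26% and 25.4% of all genes), with a median of 0.59, led by *Dkkl1* (2.04), *Asz1* (1.56), *Usp26* (1.5) and *Sycp3*, a gene of the chromosome axis (1.45), with *D1Pas1* (-0.52) and *Tex19.1* (-0.47) lower. Leaving out Con-1 or OE-2, with no genotype term, gave 13 and 15 higher. In the D7 pair 1 of 44 tested genes, *Fthl17a* (3.75), was higher and 4 were lower, namely *Piwil2* (-1.68), *Syce1* (-1.54), *Pnldc1* (-1.39) and *Hsf2bp* (-0.93), with a median of -0.38, where 6.77% and 3.06% of all genes were higher and lower. Leaving out Con-D7 or OE-D7 left 0 in either direction. The OE effect was lower in the D7 pair for 6 of the 44, among them *Hormad1* (-1.14) and *Smc1b* (-1.03), with the pair as a term (0.507% of all genes), and for 0 of the 44 without it.

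The genes that write, keep or erase DNA methylation did not pass between genotypes. Of 12 tested, 0 were higher and 0 lower in OE with the pair as a term, with a median of -0.02. *Uhrf1* measured 136.61, 109.29 and 87.98 FPKM in Con and 131.08, 103.92 and 70.83 FPKM in OE, and *Dnmt1* 80.93, 76.98 and 65.19 FPKM in Con and 82.23, 77.33 and 60.17 FPKM in OE. Their log2 fold changes in OE were -0.11 (SE 0.07) and -0.03 (SE 0.07), and those of *Dnmt3a*, *Dnmt3b*, *Dnmt3l* and *Tet1* were -0.16, -0.03, 0.13 and -0.11. In replicate 2 against 1, 7 of the 12 were lower and 1 higher, where 25.4% of all genes were lower and 26% higher, with *Uhrf1* at -0.43 (adjusted p = 7.13e-05), *Tet2* at -0.45 and *Dnmt1* at -0.18 (adjusted p = 0.0366, edgeR). Their part in the members' values was not tested. In the D7 pair *Dnmt3l* (-1.20), *Tet1* (-1.40) and *Tet2* (-1.30) were lower and *Dnmt3a* (0.69) was higher, where 3.06% of all genes were lower and 6.77% higher. Calls in that fit rest on both D7 libraries, as given above.

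Genes of PRC1.6 and its partners did not pass between genotypes either. Of 18 tested, 0 passed in OE with the pair as a term, with a median of -0.03 and values of 0.10 for *E2f6*, 0.01 for *Mga* and 0.11 for *Pcgf6*. In replicate 2 against 1, 13 of the 18 were lower and 0 higher, with a median of -0.38. Among them were *E2f6* (-0.33, adjusted p = 0.0321, edgeR), *Pcgf6* (-0.38), *L3mbtl2* (-0.60), *Max* (-0.44) and *Setdb1* (-0.70), which methylates histone H3, while *Mga* (0.04) did not pass. The part of these genes in the members' values was not tested, and 25.4% of all genes were lower in that comparison. The relatives of the members used in other tissues also fell in it, 6 of 9 being lower with a median of -0.50, and 0 of 9 passed in OE.

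**Figure D5:**
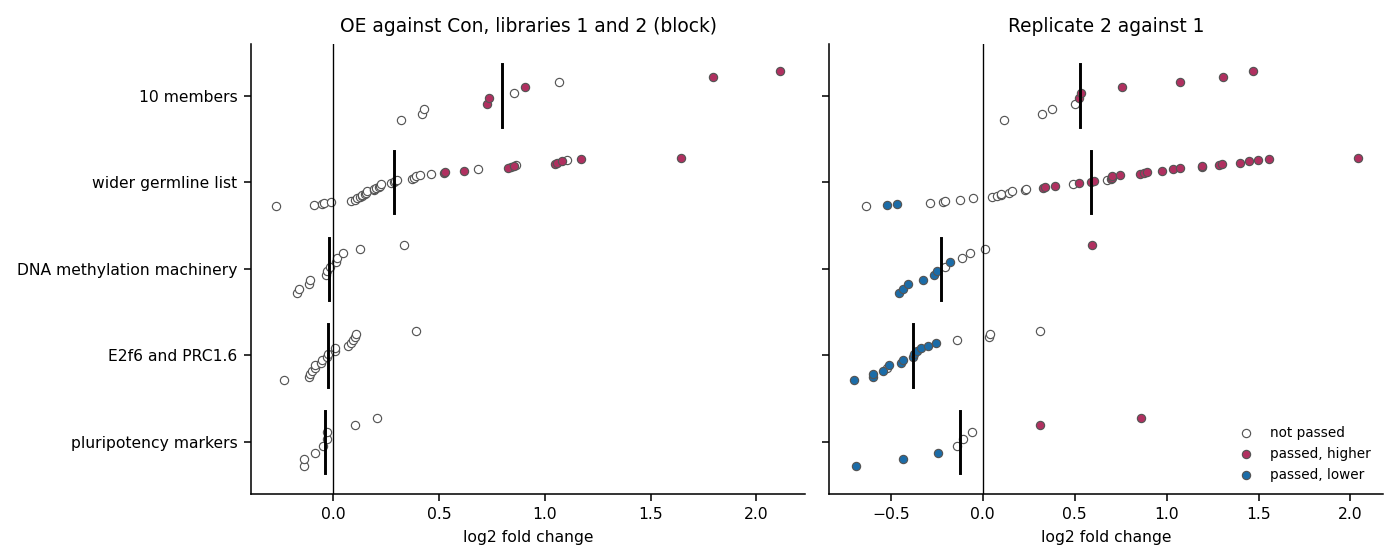
Log2 fold changes of the genes of 5 lists, OE against Con in libraries 1 and 2 with the pair as a term (left) and replicate 2 against 1 (right), 1 point per gene with black bars at the medians. Most germline genes lie to the right of 0 in both panels, with medians of 0.80 and 0.29 on the left, and the methylation and PRC1.6 lists lie near 0 on the left and mostly below it on the right.

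Averaged over the members, the standardized level was lowest in Con-1 (-1.15), then Con-D7 (-0.29), Con-2 (-0.13), OE-1 (0.06) and OE-D7 (0.17), and highest in OE-2 (1.34), with no test of neighbours in this order. No single member followed this order throughout in FPKM. *Taf7l* was lowest in OE-1 (4.67 FPKM, against 4.70 in Con-1), *Slc25a31* and *Stk31* in OE-D7 and *Tex101* in Con-D7, while *Ctcfl* was highest in OE-D7. The correlation of each member with the mean of the other 9 ran from 0.482 for *Ctcfl* to 0.937 for *Tuba3b* and 0.93 for *Tuba3a*, over 6 libraries and as a description. Among 12555 other genes with a mean of at least 1 FPKM, the 5 with the profile most like the members were *Scml2*, a Polycomb gene of the germ line (r = 0.996), *Nlrp4c* (r = 0.985), *Tfap2a* (r = 0.982), *Pdha2*, the testis form of a pyruvate dehydrogenase subunit (r = 0.980), and *Shprh* (r = 0.976), each over 6 libraries. *Scml2* measured 2.09, 5.05 and 3.88 FPKM in Con and 5.33, 12.52 and 5.93 FPKM in OE. *Shprh* varied little in size, from 8.01 to 9.44 FPKM.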

How the data were processed

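Messenger RNA was measured in 6 libraries sequenced on BGISEQ-500. The authors mapped reads to mm10 with Bowtie2 and deposited estimated counts from RSEM, not normalized, with FPKM beside them. In the submitters' processing notes HISAT and GRCm38.p6 stand instead, and versions are not given in the sources used here. The D7 counts are headed as averages but hold values of the same kind as the rest.

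Rounded counts were fitted with edgeR 4.0.16 (TMM, factors 0.944 to 1.05, quasi-likelihood F test, R 4.3.3). Genes entered a fit at a mean of at least 0.5 FPKM over its libraries, 13494 for 4 libraries and 13809 for 6. The threshold was an adjusted p under 0.05 (Benjamini-Hochberg). DESeq2 1.42.0 and limma 3.58.1 were alternatives. Fits were also run on simulated counts with known changes. Those counts took their pair shifts and dispersions from the fit over 6 libraries with the pair as a term. They therefore cannot show whether that term is right for these data.

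Members and gene lists were chosen with earlier results of these data known. The text names all members, the extremes of the wider list, fixed genes of the other lists, the members' relatives and the 5 most alike genes. *Dppa5a*, *Stra8*, *Dmrt1*, *Rec8*, *Col1a1*, *Dcn*, *Lum*, *Thy1*, *Pdgfrb*, *Tet2*, *L3mbtl2*, *Max*, *Setdb1*, *Hormad1* and *Smc1b* were named after their values were seen.

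Pairing was checked on 12565 genes. Deviations from the mean of a genotype correlated at 0.881, 0.756 and 0.889 between the Con and the OE library of 1 number and at -0.034 or below otherwise, though deviations from a mean of 3 sum to 0. A fit with the pair as a block therefore stands beside that without it where a call changed, at a common coefficient of variation of 0.0804 against 0.283 without it in 4 libraries. Motifs and likeness used RefSeq windows and GENCODE transcripts.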

Additional observations from a re-analysis of the deposited data

Results flagged for a closer look

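The OE effect on *Tuba3a* was smaller in the D7 pair than in pairs 1 and 2, by -0.828 on the log2 scale in the fit with the pair as a term (SE 0.17, adjusted p = 0.0112, edgeR), and by -0.83 when *Tuba3a* and *Tuba3b* were summed (adjusted p = 0.00841). Without the pair as a term the difference was -0.80 (adjusted p = 1). *Slc25a31*, *Stk31* and *Cox7b2* were higher in OE in both pair 1 and pair 2 and below 0 in the D7 pair, where their log2 ratios of FPKM plus 0.5 were -0.207, -0.124 and -0.027. *Cox7b2* was near level there, at 25 and 24 estimated counts in Con-D7 and OE-D7. For these genes in that order, the tests of the difference in OE effect gave adjusted p of 0.0503, 0.463 and 0.537 in edgeR with the pair as a term. The fibroblast markers, the ESC markers and the smaller *Dppa3* difference of the D7 pair are given above, and their part in these values was not tested.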

How the results depend on the processing

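In OE against Con over libraries 1 and 2 the members called higher went from 0 to 5 with the replicate block, to 4 with it in DESeq2, 5 in limma and, in settings chosen after seeing the data, 4 with both tubulin genes summed, 4 with no filter and 5 with DESeq2 size factors. Leaving out 1 library, which left 1 library in a group and replicate number unbalanced between genotypes, gave median log2 fold changes of the members from 0.436 to 1.15. In edgeR the block also changed the members called in the difference in OE effect, from 0 to 1 lower, and left the 0 called over 6 libraries. Over 6 libraries DESeq2 called 1 member without the block and 4 with it (chosen after seeing the data), and in the D7 comparison 1. For replicate 2 against 1, leaving out 1 library, which also removed the genotype term and left genotype unbalanced, gave 2 to 8 members higher and 0 to 1 lower. The median ratio of pair 1 moved from 0.776 to 0.867 with a pseudocount of 0.1 and to 0.651 with 1. All genes called higher with the block were 103 in edgeR, 32 in DESeq2, 104 in limma, 30 with no filter and 56 with the tubulins summed. Over all genes, the D7 comparison called 935 higher and 422 lower in edgeR and 1499 and 995 in DESeq2, and replicate 2 against 1 called 3511 higher in edgeR and 1576 in DESeq2.

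No direction changed under another tool, scaling, filter or the block. Leaving out a library of pair 1 or 2, without the block, left replicate number unbalanced between genotypes, so the OE values carry any replicate difference. With 1 library left out, log2 fold changes ran from -0.496 to 1.10 for *Taf7l* in OE against Con over libraries 1 and 2, and from -0.165 to 0.719 for *Taf7l* and -0.056 to 0.321 for *Stk31* over 6. In replicate 2 against 1 they ran from -0.00944 to 0.632 for *Tex101*, -1.213 to 1.599 for *Luzp4* and -0.632 to 0.644 for *Cox7b2*. In the D7 comparison they ran from -0.196 to 0.487 for *Taf7l*, -0.348 to 0.434 for *Tuba3a*, -0.123 to 0.812 for *Tuba3b*, -0.326 to 0.295 for *Luzp4* and -0.815 to 0.286 for *Cox7b2*, and in the difference of OE effects from -0.911 to 0.336 for *Dazl*, -0.028 to 0.504 for *Tex101* and -0.833 to 0.732 for *Taf7l*. The cause was not tested in any of these. With the block, OE against Con over libraries 1 and 2 could not be repeated with 1 library left out, and the difference of OE effects could not be fitted without a D7 library. *Cox7b2*, at 20 to 49 counts, is where depth limits precision most, and *Tuba3b* in Con-1 lies in that range, at 22.64.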
